A study of Homo sapiens with 11 samples.

Results

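JMJD1C binding was described at the HHEX locus of Kasumi-1 cells, as the peaks of the deposited hg19 list whose summit lay between positions 94350000 and 94600000 of chromosome 10. The window holds the HHEX gene, from 94449681 to 94455408 on the plus strand, and 9 of the 36191 peaks in the list. Its limits were set by position and not by any value of the peaks, though earlier results of these data were known when the members and measures were chosen. In the RefSeq gene order of assembly GRCh38.p14, the protein-coding neighbours of HHEX are KIF11 on one side and EXOC6 on the other.

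JMJD1C belongs to the JmjC family of histone demethylases, and Kasumi-1 is an established acute myeloid leukaemia line with the RUNX1-RUNX1T1 fusion. The library came from cells under standard culture with serum and no further agent, and was precipitated with a laboratory-made serum raised to the N-terminus of JMJD1C. The series holds 11 libraries of 4 leukaemia lines with 1 library per line and target. The other 10, an input library of Kasumi-1 among them, were not analysed here. Peaks were called in the JMJD1C library alone without an input, so tags from open, copy-rich or repeated DNA cannot be told apart from binding at any site named here. A peak list holds no expression, so neither the identity of the cells nor the activity of HHEX was checked.

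HHEX is a homeodomain transcription factor that works largely as a repressor. It is expressed in early blood progenitors and is needed for the development of the liver, the forebrain, the thyroid and the blood. The study names it among the factors it considers together with JMJD1C, and the question here is how much JMJD1C signal lies on the factor's own gene. KIF11 encodes a kinesin motor that builds the mitotic spindle, and EXOC6 encodes a subunit of the exocyst, which tethers secretory vesicles to the plasma membrane.

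The strongest JMJD1C peak of the window lay across the start of HHEX, with only 101 of its 2605 bases before that start. The sequence just before the start is shown as a description of the gene's promoter and not of the peak. It is the RefSeq promoter of HHEX in GRCh38.p14, at chr10:92689705-92689954 on the plus strand, which is the 250 bases before the gene's start. Capitals mark matches to GGGCGG, a word bound by SP and KLF factors, and to CCAAT, the NF-Y word, here on the opposite strand.
HHEX promoter: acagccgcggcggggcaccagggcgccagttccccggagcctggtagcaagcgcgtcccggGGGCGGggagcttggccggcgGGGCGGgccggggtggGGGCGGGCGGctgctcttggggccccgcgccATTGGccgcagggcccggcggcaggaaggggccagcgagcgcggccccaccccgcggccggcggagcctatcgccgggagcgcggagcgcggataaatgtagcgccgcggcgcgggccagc
This stretch was 81.2% G and C, against a median of 58.0% over 35114 RefSeq promoter windows of the same length, and stood at percentile 97.8. It held 38 CG dinucleotides against a median of 11 (percentile 97.0). GGGCGG matched 4 times, 2 of them overlapping, at 189, 168, 152 and 148 bases before the start, and 42.6% of all promoter windows hold this word on either strand. CCAAT matched at 121 bases before the start, and 32.0% of promoter windows hold it. No match was found in these letters, on either strand, to the E-box CANNTG of basic helix-loop-helix factors, which 61.8% of promoter windows hold, nor therefore to its subtype CAGNTG, which 42.5% hold. The RUNX word TGTGGT, present in 11.0% of promoter windows, was not among the letters either. The same was true of the GATA word AGATAA, which 9.17% of promoter windows hold, and of the ETS word GAGGAA, which is found in 23.6%. It was true as well of the homeodomain word CAATTAA, found in 2.10% of the promoter windows, and of the TATA-box word TATAAA, found in 10.7%. These shares are over all promoter windows and were not matched for G and C content. They give no expected share for a stretch of 81.2% G and C. Only exact matches to these words were counted. The printed letters do hold CAGGAA, close to the ETS word, and GGATAAA, close to the GATA and TATA-box words. How many promoter windows hold such near matches was not counted. A match describes letters and not a bound site. The deposited peak began 101 bases before the hg19 gene start, and the gene starts of both builds were not aligned, so no match was placed inside or outside the peak. The sequence of the peak and of its summit was not searched, so the words found or missing here do not describe the bound stretch.

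The HHEX peak ran from 94449580 to 94452184, a length of 2605 bp, and held 780 tags (exact Poisson 95% interval 726 to 837). This interval and the others on tags cover counting error within 1 library only. It reached 2504 bases into the gene and covered 43.7% of the 5728-bp gene span, and no other peak overlapped the gene. The summit, the position of highest pile-up, lay at 94450688, which is 1007 bp inside the gene and 42.5% of the way along the peak. The last 3224 bases of the gene carried no called peak. Exons and introns were not assigned, since no hg19 annotation was used here.

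**Figure D1:**
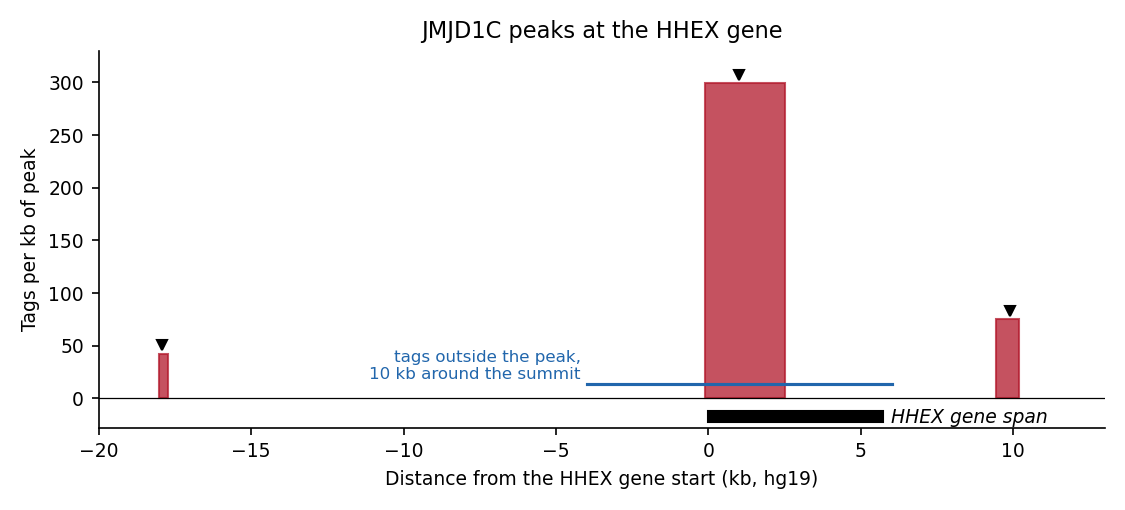
JMJD1C peaks between 20 kb before and 13 kb after the start of HHEX, drawn to scale as boxes of peak length by tags per kb, with summits as triangles. The box over the start of the gene reached 299 tags per kb, the box after the gene 75.1 and the box before it 42.4. The blue line is the tag level outside the HHEX peak within 10 kb around its summit.

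By tags the HHEX peak ranked 32 of 36191, and by length 73. Of the 31 peaks with more tags, 21 lay no farther than 1 Mb from a long peak-free stretch, which means at least 3 Mb with no peak called. Among the 34833 peaks away from such stretches it ranked 11 by tags. On chromosome 10 it ranked 5 of 1907 peaks by tags, 8 by length and 3 by the caller's score (10 times −log10 of its p-value), which was 1783.88. By tags per kb, which divides by length, its 299 tags per kb compared with a median of 60.2 over all peaks and ranked 182. This measure still goes with length, as its median was 137 among peaks longer than 2 kb. The order close to its rank is not settled by counting error. The 3 peaks above it had 803, 787 and 786 tags, on chromosome 8 from 43792986, chromosome 10 from 11219572 and chromosome 17 from 76587989. The 3 below had 775, 740 and 738 tags, on chromosome 17 from 72774802, chromosome 1 from 26867955 and chromosome 12 from 68758424. All 6 values fall within the interval of the HHEX peak.

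**Figure D2:**
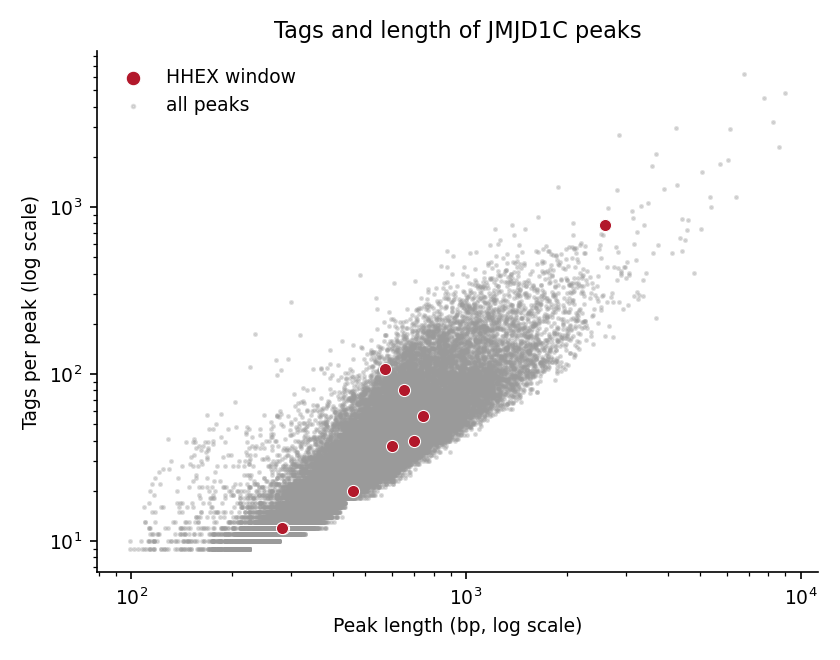
Tags against length (bp) of the 9 peaks of the HHEX window and of all 36191 peaks, both axes logarithmic; each point is 1 peak. The HHEX peak, at 2605 bp and 780 tags, stands among the longest and most tag-rich, and the other 8 lie within the main cloud at 12 to 107 tags.

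The fold enrichment of the HHEX peak, the authors' ratio of summit height to surrounding background, was 15.14 and ranked far lower, at 8380 of 36191 peaks. Of the 31 peaks with more tags, 29 had a lower fold. The 2 with both more tags and a higher fold, named after their values were seen, lay on chromosome 9 from 66970934 (876 tags, fold 16.39) and on chromosome 17 from 76587989 (786 tags, fold 18.79). The background is taken from 10 kb that also hold the peak itself. Solving the deposited score for the background, on the assumption that the caller counted tags in the 10 kb around the peak, gave 878 tags per 10 kb at HHEX, of which the peak's own 780 tags made up 88.8%, against a median own share of 22.1% over all peaks. The remaining 98 tags lay in 7395 bp, which is 133 tags per 10 kb (108 to 162 from the Poisson interval). Over all peaks the median outside signal was 99.8 tags per 10 kb (quartiles 76.2 and 138), and on chromosome 10 it was 115. In 2793 peaks the background was at the lowest value the caller allows, 73.7 tags per 10 kb, so an outside value there is an upper limit.

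Set against this outside signal, the HHEX peak was denser than all but a small share of the peaks. Tag density inside it was 22.6 times that outside (18.5 to 27.8 from the counting error of the outside tags alone), against a median of 5.97 over all peaks, and ranked 396 of 34535 peaks with a value. Ratios of peaks at the lowest background the caller allows are lower limits and were ranked as they stand. Neighbouring peaks were not taken out of the outside signal in this ranking, and their tags lower the ratio of the peaks beside them. No other peak lay within 5 kb of the HHEX summit, so the ranking favours peaks that stand apart as it does. The summit height, taken as the number of overlapping fragments at the summit, was recovered from the fold and this background. It assumes that the caller extended tags to its fragment size of 88 bp, which the file headers do not state. It was 117 fragments at HHEX, against a median of 12 over the 34455 peaks for which it came out whole, and ranked 63. Peaks at the maximum score have no height and no outside signal, so they are missing from both ranks. Those on chromosome 17 from 76587989 and chromosome 12 from 68758424, next to HHEX by tags, are among them. Where they would rank is not known. Keeping at most 1 tag per position limits the height of the tallest summits, and how far this lowered the value at HHEX was not tested. Height over the outside level was 100.3 at HHEX, against a median of 13.5 over all peaks. All ranks describe 1 list, and without a replicate no p-value was computed.

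Long peaks are the closest comparison, since 216 peaks were longer than 2 kb. Among all 216 the HHEX peak ranked 29 by tags, with 780 against a median of 334, and 22 by tags per kb, with 299 against 137. It ranked 34 by fold and 3 of 182 by the ratio of inside to outside density. Leaving out those near long peak-free stretches, 169 remained. In this set the HHEX peak ranked 8 by tags, with 780 against a median of 298, and 5 by tags per kb, with 299 against 127. By deposited fold it ranked 32, with 15.14 against a median of 10.41. The signal outside the HHEX peak, 133 tags per 10 kb, was low for a long peak, where the median was 207. Only 13.5% of the 148 long peaks with a value had a lower one. Inside over outside density was 22.6 at HHEX against a median of 5.71 and ranked 3 of 148. The outside signal of the long peaks also includes tags of any neighbouring peaks, of which HHEX had none so close, and the ranks were not corrected for this. The HHEX peak was about as concentrated as other long peaks: its summit was 4.44 times its mean pile-up of 26.3 fragments, against a median of 4.09 (quartiles 3.24 and 5.09). The HHEX peak ranked 58 of 150 in this concentration and 3 of 148 in the ratio to its surroundings.

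**Figure D3:**
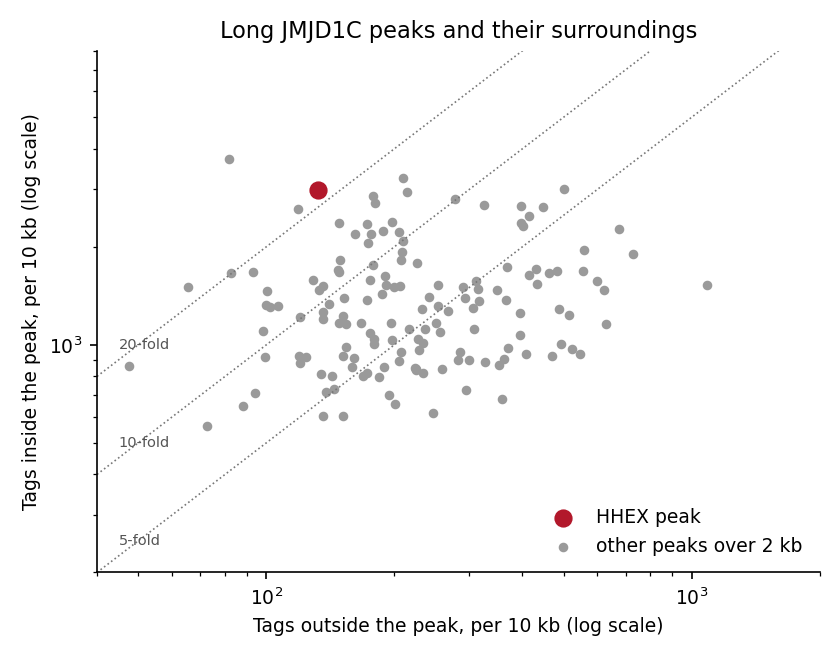
Tags per 10 kb inside against outside the peak, both axes logarithmic, for the HHEX peak and the other peaks longer than 2 kb away from long peak-free stretches; dotted lines mark 5-fold, 10-fold and 20-fold ratios. The HHEX peak, at 133 tags outside and a ratio of 22.6, lies above the 20-fold line, as few other long peaks do. Neighbouring peaks were not taken out of the outside tags.

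Around HHEX, 2 further peaks had their summits within 20 kb of the gene span. After the gene, the peak from 94459118 to 94459863 held 56 tags (42.3 to 72.7) at a fold of 14.95, with its summit 4160 bp beyond the gene end. It was above the median peak in tags (percentile 75.2), length (percentile 80.9) and fold (percentile 76.2). Its background did not come out as a whole number of tags, so no outside signal or summit height is given for it. Before the gene, the peak from 94431665 to 94431947 held 12 tags (6.2 to 21.0) at a fold of 10.79, with its summit 17.9 kb before the gene start. It stood at percentile 7.92 by tags, and its background was at the lowest value that the caller allows, 73.7 tags per 10 kb, so its outside level of 63.5 is an upper limit. The HHEX peak was separated from these neighbours by 6.93 kb after it and 17.6 kb before it.

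On the EXOC6 side, a close pair of peaks held the most tags after the HHEX peak. Its left member, from 94515763 to 94516414, held 80 tags (63.4 to 99.6) and reached a fold of 12.72. Its right member, from 94516660 to 94517231, held 107 tags (87.7 to 129) and reached 18.60, the highest fold of the 9 peaks. Their summits lay 66.5 and 67.3 kb after the HHEX start, 867 bp apart, and 245 bp separated the peaks. By tags the pair stood at percentiles 85.3 and 91.1 of all peaks. Each background includes the tags of the partner: with both peaks taken out, the signal around them was 103 and 107 tags per 10 kb. Against those levels the mean tag densities of the peaks were 12.0 and 17.5 times as high. These ratios are not comparable with the deposited fold, which sets the summit height against a background that holds both peaks. Summit heights were 31 and 46 fragments, against 117 at HHEX. No other peak lay within 55.9 kb before or 65.6 kb after the pair. Farther on, the peaks from 94582791 to 94583072 and from 94590762 to 94591222 held 12 tags (6.2 to 21.0) and 20 tags (12.2 to 30.9), at folds of 9.21 and 7.37. Both were below the median peak in tags and fold. Whether any of these peaks touches EXOC6 was not analysed here.

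On the KIF11 side, a pair of peaks lay close to the edge of the window. The peak from 94351217 to 94351816 held 37 tags (26.1 to 51.0) and the peak from 94352577 to 94353274 held 40 tags (28.6 to 54.5), with summits 98.2 and 96.8 kb before the HHEX start. Both were a little above the median peak in tags, at percentiles 59.3 and 62.5. Their folds of 5.98 and 5.77 were the lowest of the window and stood at percentiles 4.64 and 3.76 of all peaks. As in the other pair, the background of each includes the tags of its partner. The summits were 10 fragments high in each, and the signal around the peaks, with both taken out, was 130 and 138 tags per 10 kb. Against those levels the mean tag densities were 4.75 and 4.16 times as high. From this pair, 78.4 kb without a called peak led to the next one. Whether the pair touches KIF11 was not analysed here.

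**Figure D4:**
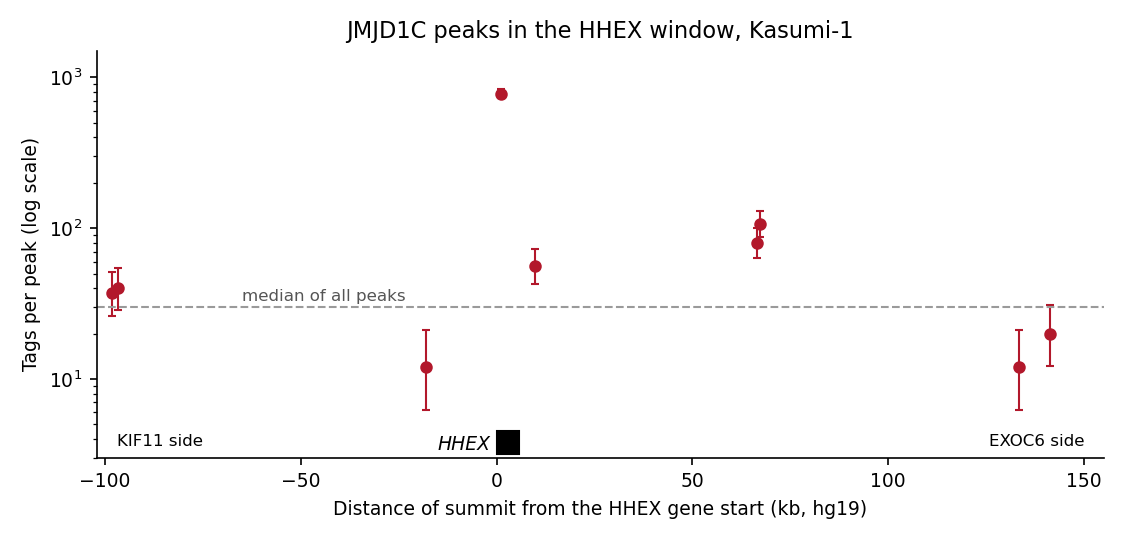
Tags per peak (logarithmic axis) against the distance of the summit from the HHEX start (kb), for the 9 JMJD1C peaks of the window; bars are exact Poisson 95% intervals and the dashed line is the median of all peaks, 30 tags. The HHEX peak at 780 tags stands above the 8 others, whose highest is the peak 67.3 kb after the start with 107.

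Together the 9 peaks held 1144 tags (exact Poisson 95% interval 1078.7 to 1212.3) and covered 2.76% of the window. The HHEX peak contributed 68.2% of these tags (exact Clopper-Pearson interval 65.4% to 70.9%). That interval treats the tags of 1 library as independent. The peak held 7.29 times as many tags as the next one. The pair was picked as the highest and the next by tags, so their tag intervals cannot test this difference. The HHEX peak was also the longer of the 2, at 2605 against 572 bp, and by tags per kb they stood closer, at 299 and 187. The 3 peaks before the gene held 89 tags and the 5 after it 275. The medians of the 9 peaks were close to those of the whole list. They had a median of 40 tags against 30 in all peaks, a median length of 600 bp against 477 bp, and a median fold of 10.79 against 10.87. Of the 9, 5 had a fold of at least 10, against 60.1% of all peaks, and 0 had a fold of at least 20, against 9.84%. At least 100 tags were held by 2 of the 9, against 10.1% of all peaks, and 1 of the 9 was at least 1000 bp long, against 8.32%. With 9 members these shares are near the background and say nothing particular about the window. The nearest peaks outside the window, from 94335668 to 94336114 and from 94605577 to 94606081, held 26 and 28 tags at folds of 8.26 and 10.93. Just inside it, the first and last members held 37 and 20 tags at folds of 5.98 and 7.37.

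Compared with 11759 windows of 250 kb along chromosomes 1 to 22 and X, the HHEX window was rich in tags and less so in peaks. Its 9 peaks were reached or passed by 10.5% of windows, where the median window held 1 peak. Its 1144 tags were reached or passed by 163 windows, or 1.39%, against a median of 33 tags. These shares are counts over all windows of 1 list, so no interval is given. With the tag-richest peak taken out of every window, a comparison added after the data were seen, the HHEX window kept 364 tags, which 7.74% of windows reached or passed. Of the 541 windows on chromosome 10, 2.22% reached 1144 tags.

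**Figure D5:**
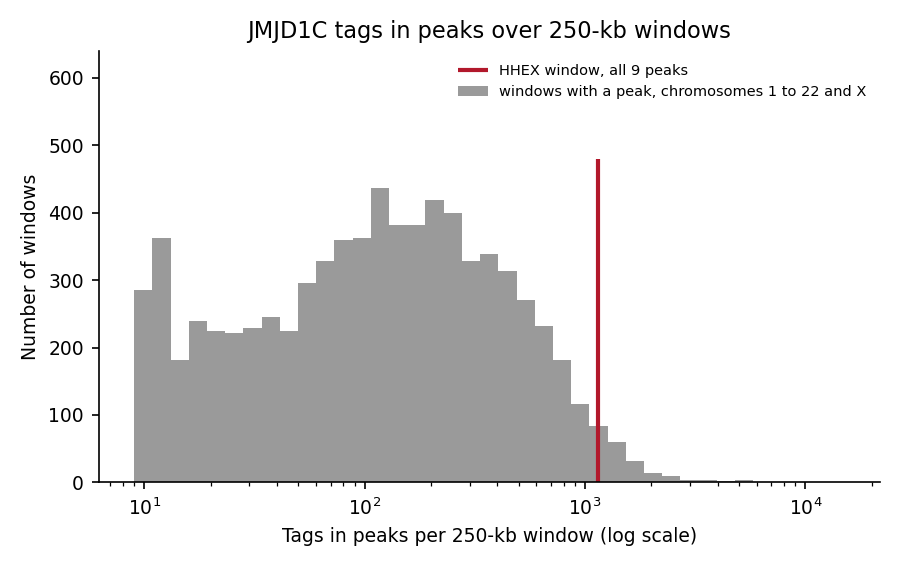
Number of 250-kb windows of chromosomes 1 to 22 and X by the tags in their peaks (logarithmic axis), windows without a peak left out. The line marks the HHEX window at 1144 tags, a value reached or passed by 163 windows.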

How the data were processed

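ChIP-seq of JMJD1C in Kasumi-1 cells was analysed from 1 deposited peak list. Per the file headers, the authors called peaks with MACS 1.4.2 without a control, at a p-value cutoff of 1e-05, with a fragment size of 88 bp and a background from 10 kb. At most 1 tag per position was kept, leaving 19897991 of 29330355 tags. This caps the tags of a narrow peak and the height, and so the fold, of any tall summit. The submitters' processing notes name hg19 as the build and, among the tools, HOMER and Bowtie2 2.1.0. The deposited columns are a tag count for each peak, a score (10 times −log10 of the p-value), a ratio of summit to background (fold), and positions; nothing is normalised to another library.

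The local background was the number of tags per 10 kb whose Poisson tail gave the deposited score over the peak length (at least 176 bp). It was used where within 0.05 of a whole number or 0.15 of the minimum of 73.7, in 95.6% of peaks, and never at the maximum score of 3100 (6 peaks). Summit height is fold times background per 88 bp, and came out whole in 99.5% of those. Outside signal was computed for peaks of 176 to 5000 bp, and in all rankings by it the tags of neighbouring peaks were left in. Heights, outside signal and their ratios assume that the caller used the 10 kb around the peak, and heights also that it extended tags to 88 bp. The recovery was tested on simulated data made with the same assumptions. Intervals are 95%. Peaks within 20 kb of HHEX and the 5 with most tags were to be given in full, as were the 3 peaks above and below in rank. Members, words and measures were chosen with earlier results of these data known. Promoter sequence is from RefSeq (GRCh38.p14), matched by symbol (1 of 1); its positions were not mixed with hg19. SciPy 1.17.1, NumPy 2.4.6 and pandas 2.3.3 were used under Python 3.11.15, with figures from Matplotlib 3.10.9.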

Additional observations from a re-analysis of the deposited data

How the results depend on the processing

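The HHEX peak covered 43.7% of the gene under each threshold run, and the window held the same 9 peaks by summit or by any overlap. Neither result checks the HHEX peak. The thresholds only drop peaks, and its score of 1783.88 and fold of 15.14 pass both. It also lies far from the edges of the window. The window held 4 peaks with 1023 tags among peaks scoring above the median, 5 with 1035 at a fold of 10 or more, 5 with 1035 in the narrower and 14 with 1421 in the wider window around the same centre, which follows from the smaller or larger sets. The rank of the HHEX peak by tags was 11 away from long peak-free stretches, 8 among peaks with a fold of 10 or more, 5 on its chromosome and 182 by tags per kb. Its rank by fold was 34 among the 216 peaks longer than 2 kb and 8073 away from long stretches. The share of windows with at least as many peaks was 16.3% among windows with a peak and 11.6% on chromosome 10, and that with at least as many tags was 2.15% and 2.22%. With every window stripped of its tag-richest peak, added after seeing the data, the share by tags was 7.74%. With the grid shifted, the shares were 10.1% by peaks and 1.39% by tags, against 10.5% and 1.39% before. Leaving out a replicate was not run, since 1 library was analysed. No paired analysis was possible because each group has 1 library. Depth limits the weakest members, which rest on 12 tags.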
